A study of Mus musculus with 9 samples.

Results

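Alternative 3′ splice sites (acceptors) that lie more than 3 nt apart were followed in N2A cells, a mouse neuroblastoma line, after knockdown of Srrm4, Zfp871, Nacc1, or Mbnl1 and Mbnl2 together. An acceptor was taken when its use added at least 4 nt of exon relative to the innermost acceptor of its event, and when its percent spliced in (PSI) was present in all conditions and between 5 and 95 in at least 1 condition of an experiment. PSI is here the percent of an event's junction reads that use the acceptor, so these levels chose the acceptors and are given as a description. The rule took 2239 acceptors in 1618 genes in the first experiment and 2312 acceptors in 1677 genes in the second, out of 39661 alternative acceptor entries and 283013 events in each table. Both experiments shared 1710 of them, which was 76.4% of the first set and 74.0% of the second, and together they held 2841 acceptors of 2473 events in 1985 genes.

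Of the 9 libraries, made from polyA RNA 48 h after transfection with pooled siRNAs, 3 formed the first experiment and 6 the second. The first held 1 library each of cells given siRNAs against Mbnl1 and Mbnl2 together, cells given siRNAs against Nacc1, and cells given a non-targeting pool (siNT). The second held 2 libraries each of cells given siRNAs against Srrm4, against Zfp871, or the non-targeting pool. All groups were N2A cells and differ by the labels in the siRNA pool alone. Whether libraries of the same group are separate cultures is not stated, so p-values measure only the spread between them. Mbnl1 and Mbnl2 are muscleblind RNA-binding splicing regulators, Srrm4 is a neural activator of microexons, Nacc1 is a BTB-domain transcriptional regulator and Zfp871 is a zinc finger protein.

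The end of an intron is marked by an AG dinucleotide behind a polypyrimidine tract and a branch point. U2AF binds the tract and the AG, the branch point is recognised by the U2 particle, and in the second step of splicing an AG downstream of the branch point is joined to the upstream exon. Where several AGs compete, the use of the outer one, farther upstream, lengthens the exon, and the length of the added stretch decides whether the reading frame is kept.

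The stretches between the acceptors on which the results below turn and the innermost acceptor of each event are shown first. In events with 2 acceptors such a stretch is what the choice adds to or leaves out of the mRNA. With more acceptors the choice can lie between others. In the second experiment the innermost acceptor of Cep55 had a PSI of 0.48 to 1.93. That of Chchd1 was at 0.11 to 0.37. The stretches were read from GENCODE M21 transcripts (GRCm38) that use the outer acceptor. Capitals mark the bases between the outer and the innermost acceptor, ending in the AG of the innermost one, and lower case marks the exon bases joined on either side. The first 4 belong to the genes called below.
Cask, 15 nt: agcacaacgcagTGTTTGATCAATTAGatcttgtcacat
Chchd1, 16 nt: aagggagTTCTTCCCCTCCAGAGgcaacct
Unc50, 4 nt: tattctaagcagGAAGatgctaccaagt
Cep55, 126 nt: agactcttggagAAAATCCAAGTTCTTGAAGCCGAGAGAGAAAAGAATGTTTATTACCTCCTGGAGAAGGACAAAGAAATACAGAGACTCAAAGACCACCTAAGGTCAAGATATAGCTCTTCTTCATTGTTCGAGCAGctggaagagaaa

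The Cask stretch is coding and lies at chrX:13537827-13537841 on the minus strand. The Chchd1 stretch, at chr14:20703276-20703291 on the plus strand, was annotated only in a non-coding or decay transcript. The Unc50 stretch is in the 5′ UTR at chr1:37431293-37431296 on the plus strand, and the Cep55 stretch is coding at chr19:38060081-38060206 on the plus strand. The next ones show how short such a choice can be, with acceptors 4 nt apart first and those with 6 or 9 nt after them.
Snapc4, 4 nt: caggagcagcagGAAGagatcctgtttg
Racgap1, 4 nt: ccgggagcctcgAAAGatggatactaca
Phf20l1, 4 nt: gaggccgagtcgGTAGtggaaagaaaat
Rad9, 4 nt: aagaggaggcagACAGcaccagcaaagc
Synrg, 4 nt: attgcaatgcagGCAGgaataccaatgg
Ablim1, 6 nt: acaaacagcatgATGCAGctgccttggcag
Tmeff1, 6 nt: cagatgtgaaagATGCAGgtgatgaaaggg
Synj1, 9 nt: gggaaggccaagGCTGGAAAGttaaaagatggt

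Those of Racgap1 (chr15:99642968-99642971, minus strand) and Phf20l1 (chr15:66580069-66580072, plus strand) lie in the 5′ UTR. The others are coding: Snapc4 at chr2:26376722-26376725, Rad9 at chr19:4197583-4197586, Ablim1 at chr19:57047066-57047071 and Synj1 at chr16:90974067-90974075 on the minus strand, and Synrg at chr11:83978920-83978923 and Tmeff1 at chr4:48650295-48650300 on the plus strand.

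Of the 2841 acceptors, 1967 had such a stretch of the full length in GENCODE M21, and 1951 of these (99.2%) ended in AG. The innermost acceptor was CAG in 1405 (72.0%), TAG in 297 (15.2%), AAG in 223 (11.4%) and GAG in 26 (1.33%). By annotation, 1381 stretches (70.2%) were coding sequence, 188 (9.56%) 5′ UTR, 19 (0.966%) 3′ UTR, 90 (4.58%) crossed a coding boundary and 289 (14.7%) lay only in non-coding or decay transcripts. The added stretch had a median of 36 nt (quartiles 15 and 78 nt) and reached 464 nt. The most frequent lengths were 4 nt (225 acceptors), 5 nt (129) and 6 nt (98). Multiples of 3 made up 36%, against 37.2% of the 10585 acceptors of 4 nt or more whose PSI stayed outside the 5 to 95 range in the second experiment.

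Distance went with a change in which acceptor was preferred. Among the 1374 acceptors of events with 2 acceptors that had enough reads, the outer acceptor at 4 nt had a median PSI of 94.1 in the control cells of the second experiment, and 134 of 148 were used more than 50% of the time. At 5 to 8 nt the median was 90.7. At 9 to 18 nt it was 24.0, with 81 of 205 above 50%, and at 19 to 50 and 51 to 150 nt it was 36.5 and 37.3. Beyond 150 nt the median was 15.2. From 9 nt on, the lower and upper quartiles lay near both ends of the scale (4.7 and 87.3 at 9 to 18 nt), so that most of these acceptors were either rarely or nearly always used. By the same PSI rule the 875 tandem acceptors 3 nt apart had a median of 74.4, against 92.9 for all 174 acceptors at 4 nt.

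**Figure D1:**
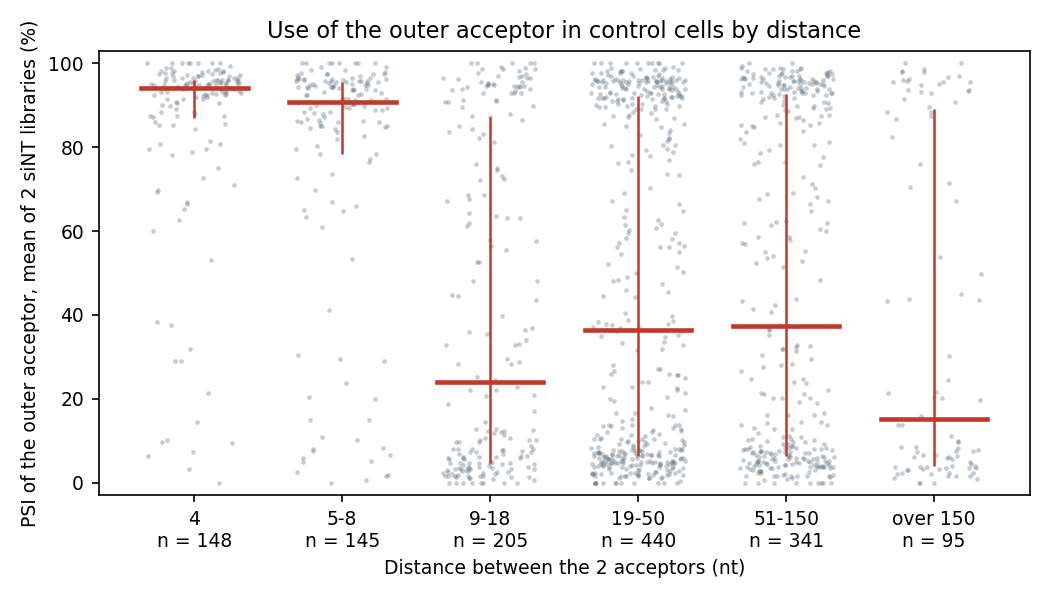
PSI of the outer acceptor in control cells (vertical axis, mean of 2 siNT libraries, %) against the distance between both acceptors (horizontal axis, nt, in classes) for 1374 events with 2 acceptors. Points are acceptors, red bars are medians and red lines join the quartiles: the median is 94.1 at 4 nt and 24.0 at 9 to 18 nt.

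The reading frame went with balanced use. Of the 263 such acceptors with a control PSI between 20 and 80, 139 (52.9%) had a length that is a multiple of 3, against 351 of 1111 (31.6%) of those nearer the ends of the scale. The 148 acceptors at 4 nt, never a multiple of 3, had a lower quartile of 86.9, so most of them are among the 1111. Frame and distance are therefore not separated in this contrast. Among coding stretches longer than 8 nt, the 259 with a length divisible by 3 had a median outer PSI of 76.4 (quartiles 35.3 and 93.9), and the 231 others a median of 93.9 (quartiles 87.5 and 96.3). These stretches were read from transcripts that use the outer acceptor, so they lean towards events in which it is used often. By the base before the innermost AG, the outer acceptor of stretches of 4 to 18 nt had a median PSI of 94.8 where that acceptor was AAG (n = 56), 91.6 where it was TAG (n = 79) and 89.9 where it was CAG (n = 263). The quartiles of these 3 classes overlapped. In stretches of at least 40 nt, pyrimidines made up a median of 70% of the 20 bases ahead of the innermost acceptor where the outer one was used at 50% or less (n = 135), and 65% where it was used more (n = 232), with overlapping quartiles of 65 to 80% and 60 to 75%. These are descriptions of levels that the rule itself used, and none was tested.

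At the edge of the rule, the Wdr26 acceptor (26 nt) was taken with a highest PSI of 5.003 and the Zfp961 acceptor (153 nt) with 5.006, while a BC088983 acceptor (75 nt) with 4.996 and an F630043A04Rik acceptor (14 nt) with 4.992 were left out.

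Total gene counts ran from 44186088 to 63715449 per library. The targeted genes were lower in their own knockdowns. Srrm4 was at 28.3 and 26.1 CPM (gene counts scaled to the library total) after its knockdown, against 66.8 and 96.7 CPM in control cells, and Zfp871 at 7.17 and 5.08 CPM against 17.6 and 26.2 CPM. In the first experiment Mbnl1 was at 45.2 CPM and Mbnl2 at 18.2 CPM after their knockdown, against 124 and 65.7 CPM in control cells, and Nacc1 was at 52.0 CPM after its knockdown, against 208.5 CPM. Of 18 markers of N2A and neuronal cells, 17 averaged at least 1 CPM in both experiments, and their summed level was 5500 to 5730 CPM after Srrm4 knockdown, 5330 to 5420 CPM after Zfp871 knockdown and 5910 to 6700 CPM in control cells of the second experiment. Of 18 markers of fibroblasts, glia, epithelial, immune and endothelial cells, 3 averaged at least 1 CPM in the second experiment and 6 in the first, while Col1a1, Gfap, Sox10, Epcam and Ptprc stayed under 1 CPM in every library. Their summed level was 11.5 to 13.0 CPM after Srrm4 knockdown, 7.79 to 10.2 CPM after Zfp871 knockdown and 10.8 to 13.6 CPM in control cells. In bulk RNA, fewer cells of a type and less RNA per cell cannot be told apart. The part of these levels in the results below was not tested.

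Acceptors were compared in the second experiment by the reads that support and exclude each one, with edgeR's quasi-likelihood test fitted to all 69566 events with enough reads. A call needed a Benjamini-Hochberg adjusted p below 0.05 and a PSI difference of at least 10 points. Of the 2312 acceptors, 2298 had at least 10 reads in every library and were tested, with a median of 68 to 95 reads per acceptor and library, and 1345 of them lay within the PSI range in all 3 conditions. The test that had been planned as the main one, limma on the logit of PSI, called none of the 2298 in any of the 3 comparisons (unadjusted p below 0.05 for 167, 268 and 240). The edgeR test was made the main one after both results were known, because the planned test recovered none of the changes put into simulated data, where edgeR recovered most of them, and because every entry proved to have paired reads. The simulated reads came from a count model closer to edgeR's than to limma's, with a set spread, so that comparison leans towards edgeR. The few calls below therefore rest on the choice of edgeR, and the value by limma is given beside each.

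After Srrm4 knockdown 1 acceptor of 2298 was called, the 15-nt acceptor of Cask, against 0.161% of all events tested and 0.423% of the other events that meet the same PSI rule. Cask encodes a membrane-associated scaffold kinase of synapses and cell junctions. Its outer acceptor (mm9 chromosome X, acceptor position 13114967, minus strand) had a PSI of 75.3 and 88.3 in the 2 Srrm4 knockdown libraries and 22.7 and 25.3 in the 2 control libraries, from 142 to 196 reads each. The groups were far apart, and Cask rose by 57.8 points (log2 odds ratio 3.90 ± 0.47 SE, adjusted p = 3.6e-05 by edgeR and 0.152 by limma). This call held without each of the 4 libraries in turn. The same acceptor was, in the first experiment, at 27.04 after Mbnl1/2 knockdown, 35.7 after Nacc1 knockdown and 26.8 in control cells, so its control level was alike in both experiments. Cask mRNA itself was at 113 and 118 CPM in the Srrm4 knockdown libraries and 113 and 121 CPM in control libraries.

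No other acceptor passed after Srrm4 knockdown, and 74 of 2298 (3.22%) had an unadjusted p below 0.05, against 4.99% of all events. Those with the lowest p among acceptors whose groups did not overlap are given as values. The 4-nt acceptor of Snapc4, a subunit of the complex that activates small nuclear RNA genes, was at 87.5 and 84.8 in Srrm4 knockdown libraries and at 100 in both control libraries (adjusted p = 0.0587 by edgeR). In the first experiment Snapc4 was at 84.55 after Mbnl1/2 knockdown, 100 after Nacc1 knockdown and 91.7 in control cells. In Dopey1, which encodes a protein of Golgi traffic, the 27-nt acceptor was at 88.3 and 90.4 after knockdown, against 65.0 and 31.4 in control libraries (adjusted p = 0.0968 by edgeR). The control libraries of Dopey1 lay far from each other, on 42 and 39 reads. The 6-nt acceptor of Ablim1, an actin-binding LIM protein, was at 54.0 and 47.0 after knockdown, against 71.1 and 74.4 in control libraries, on 159 to 300 reads (adjusted p = 0.363 by edgeR). In the control library of the first experiment Ablim1 was at 68.4 and Dopey1 at 52.3.

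The remaining 8 ranked the same way had adjusted p-values of 0.586 to 0.914 by edgeR. Higher after Srrm4 knockdown were Hax1 (123 nt, 23.7 points), Nktr (75 nt, 17.2 points), Cdk13 (180 nt, 13.8 points), Rsrc2 (22 nt, 11.4 points) and Gcc2 (73 nt, 10.6 points). Hax1 encodes a mitochondrial survival factor, Nktr a cyclophilin with serine-arginine repeats, and Cdk13 a kinase of transcription elongation. Lower were Slc35a4 (88 nt, -38.2 points), Epb4.1 (17 nt, -17.8 points) and Coq9 (134 nt, -10.2 points). The first-experiment control library was at 33.1 for Cdk13 and 22.6 for Rsrc2, against means of 22.7 and 12.6 in second-experiment control libraries. It was closer to those means for Hax1 (49.05 against 41.7), Gcc2 (6.79 against 0) and Nktr (63.05 against 64.8). The same held for Epb4.1 (33.0 against 36.8) and Coq9 (23.8 against 23.7), and Slc35a4 had 3 reads there. Epb4.1, which encodes protein 4.1 of the membrane skeleton, was also lower as a gene, at 54.0 and 37.3 CPM after Srrm4 knockdown against 130 and 121 CPM in control libraries (log2 fold change -1.46 ± 0.17 SE, adjusted p = 0.0222 by edgeR). Over all tested acceptors, the groups did not overlap and their mean PSI differed by at least 10 points for 75 (3.26%), 37 higher and 38 lower. The share was 3.05% of all events and 4.96% of the other events that meet the same PSI rule. The median PSI difference was 0.00 points, against -0.3 over all events.

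After Zfp871 knockdown 3 acceptors of 2298 were called, against 0.0402% of all events tested and 0.103% of the other events under the same PSI rule: Cask, Chchd1 and Unc50. Each had an adjusted p of 0.0294 by edgeR. None of these calls was kept when 20 reads per library were required or when only the 4 libraries compared were fitted. Under both settings 0 of all events passed. The calls were also lost when any 1 library of either group was left out, and so were those over all events. Cask was at 62.4 and 68.6 in Zfp871 knockdown libraries, against 22.7 and 25.3 in control libraries, and rose by 41.5 points (log2 odds ratio 2.60 ± 0.47 SE; adjusted p by limma 0.358). Its level after Zfp871 knockdown was 16.3 points below that after Srrm4 knockdown, a difference that did not pass (adjusted p = 0.842 by edgeR). Srrm4 mRNA was at 44.9 and 53.7 CPM in the Zfp871 knockdown libraries, against 66.8 and 96.7 CPM in control libraries (log2 fold change -0.73 ± 0.19 SE, adjusted p = 0.099 by edgeR), and its part in the Cask values was not tested. Cask mRNA was at 93.7 and 84.5 CPM after Zfp871 knockdown, against 113 and 121 CPM (adjusted p = 0.0833 by edgeR). The same control libraries stand behind both Cask differences.

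Chchd1 encodes a protein of the small mitochondrial ribosomal subunit. Its 16-nt acceptor (mm9 chromosome 14, acceptor position 21522498, plus strand) was at 38.5 and 43.9 after Zfp871 knockdown and at 15.3 and 16.2 in control libraries, on 932 to 1334 reads, which made it the most deeply read of the called acceptors. It rose by 25.5 points (log2 odds ratio 1.91 ± 0.34 SE; adjusted p by limma 0.344). The event has a further acceptor that adds 2 nt, at 61.1 and 55.8 after Zfp871 knockdown, against 84.5 and 83.7 in control libraries. Srrm4 knockdown libraries were at 13.5 and 14.6, and the 3 libraries of the first experiment at 13.2, 12.5 and 12.4 for Mbnl1/2 knockdown, Nacc1 knockdown and control. The Zfp871 knockdown libraries thus stood above all other libraries. Chchd1 mRNA was at 49.1 and 36.9 CPM after Zfp871 knockdown, against 60.7 and 57.9 CPM (adjusted p = 0.144 by edgeR).

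Unc50 encodes a membrane protein of the Golgi. Its 4-nt acceptor in the 5′ UTR (mm9 chromosome 1, acceptor position 37488138, plus strand) was at 72.0 and 85.8 after Zfp871 knockdown and at 97.6 and 98.1 in control libraries, and fell by 18.97 points (log2 odds ratio -3.55 ± 0.65 SE; adjusted p by limma 0.459). Of the Srrm4 knockdown libraries, 1 at 86.1 lay close to the upper Zfp871 knockdown library, and the other was at 96.2. Of the first experiment, the control library was at 77.7, below Mbnl1/2 knockdown at 96.3 and Nacc1 knockdown at 91.3. The control levels of Unc50 thus differed between the experiments by about as much as the knockdown from its control.

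Among the acceptors given as values after Zfp871 knockdown, Synj1 came first. It encodes synaptojanin, a phosphoinositide phosphatase of synaptic vesicle recycling, and its 9-nt acceptor was at 23.7 and 38.7 after knockdown, against 4.56 and 4.99 in control libraries, on 61 to 78 reads (adjusted p = 0.122 by edgeR). All other libraries of both experiments were between 2.26 and 10.1. Fau, which encodes a ubiquitin-like protein fused to a ribosomal protein, used its 47-nt acceptor at 20.8 and 19.2 after knockdown, against 7.85 and 3.66 in control libraries, with the reverse in its 29-nt acceptor, at 77.8 and 77.7 after knockdown against 91.3 and 93.9 in control libraries. Both are entries of 1 event and share its reads (adjusted p = 0.207 and 0.258 by edgeR).

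Another 2 acceptors 4 nt apart were among them. Racgap1, a centralspindlin subunit, was at 83.6 and 77.2 after Zfp871 knockdown, against 91.5 and 92.3 in control libraries (adjusted p = 0.466 by edgeR). In the first experiment Racgap1 was at 84.2, 86.65 and 87.5 for Mbnl1/2 knockdown, Nacc1 knockdown and control. Phf20l1, a reader of methylated lysine, was at 100 in both knockdown libraries, against 91.8 and 83.8 (adjusted p = 0.392 by edgeR). The Zfp1 acceptor (59 nt) was 33.2 points higher and the Surf1 acceptor (20 nt) 11.8 points higher, with adjusted p-values of 0.501 and 0.511 by edgeR. In the control library of the first experiment Zfp1 was at 16.4 and Surf1 at 5.10, within the range of the second-experiment control libraries. In all, 139 of 2298 acceptors (6.05%) had an unadjusted p below 0.05, against 4.88% of all events. For 127 (5.53%) the groups did not overlap and their mean PSI differed by at least 10 points, 59 higher and 68 lower. The share was 2.96% of all events and 4.77% of the other events that meet the same PSI rule.

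**Figure D2:**
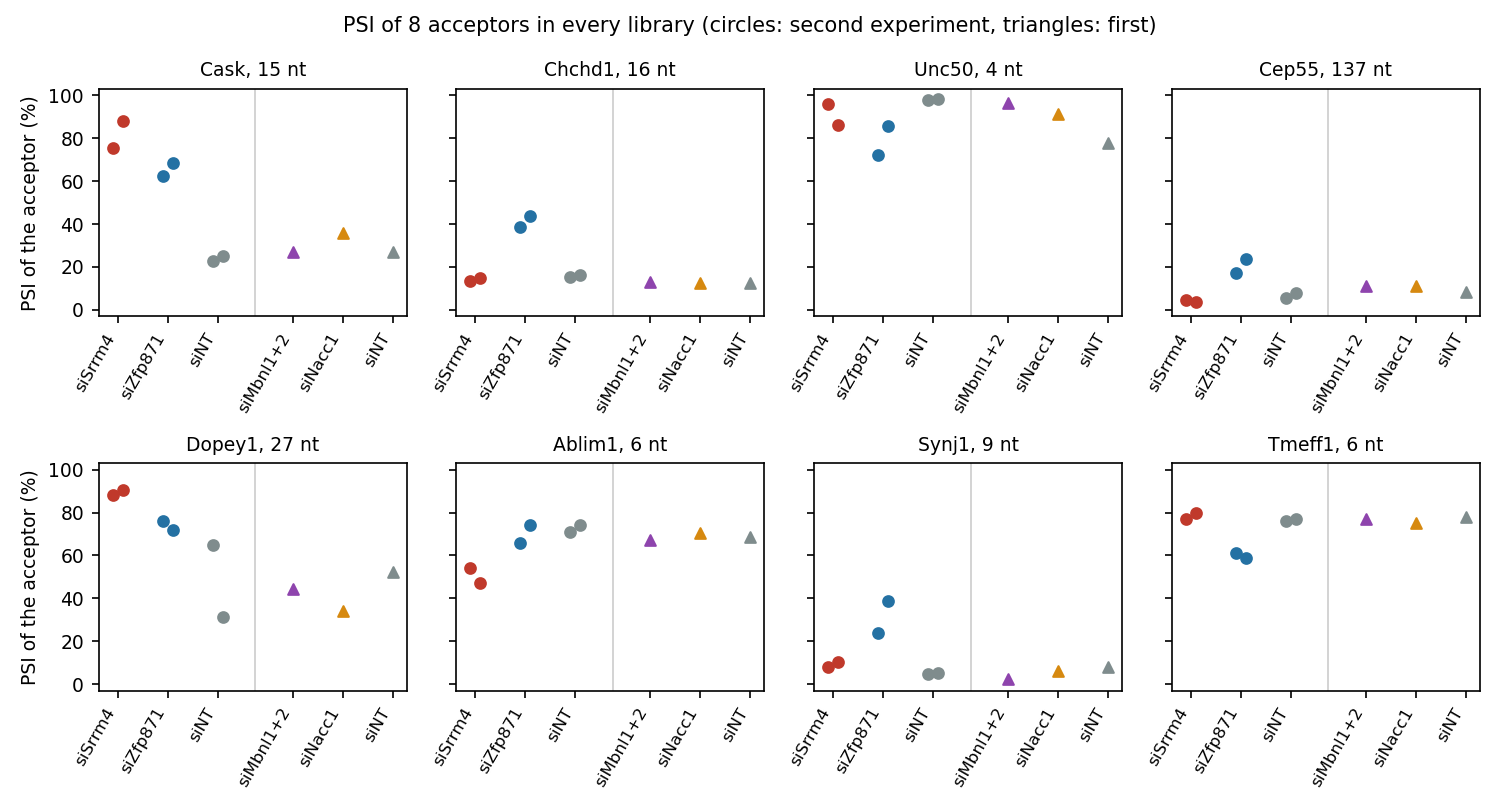
PSI (vertical axis, %) of 8 acceptors in each of the 9 libraries: circles are the 2 libraries per group of the second experiment and triangles the 1 library per group of the first. Cask is higher in both knockdowns than in control cells, Chchd1, Cep55 and Synj1 are higher and Tmeff1 lower in the Zfp871 knockdown libraries than in all other libraries, and the 2 control values of Dopey1 are 65.0 and 31.4.

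Zfp871 knockdown was also set directly against Srrm4 knockdown, and 3 entries were called, against 0.0144% of all events and 0.0214% of the other events under the same PSI rule. Chchd1 was 27.1 points higher after Zfp871 knockdown (adjusted p = 0.0178 by edgeR and 0.359 by limma). The other 2 belong to 1 event of Cep55, a protein of the midbody in cell division. Its 137-nt acceptor (mm9 chromosome 19, acceptor position 38134560, plus strand) was at 17.4 and 23.7 after Zfp871 knockdown, against 4.72 and 3.56 after Srrm4 knockdown and 5.71 and 7.77 in control cells. The acceptor that adds 126 nt was at 80.5 and 75.5, against 94.8 and 95.6 after Srrm4 knockdown and 93.8 and 91.5 in control cells. The 137-nt acceptor was higher by 16.4 points and the 126-nt one lower by 17.2 points after Zfp871 than after Srrm4 knockdown (adjusted p = 0.0295 for each by edgeR, 0.371 and 0.384 by limma). Against control cells the differences of 13.8 and -14.7 points did not pass (adjusted p = 0.219 and 0.182 by edgeR). Cep55 mRNA was at 56.4 and 43.8 CPM after Zfp871 knockdown and 76.2 and 71.2 CPM in control libraries (adjusted p = 0.0858 by edgeR). Between both knockdowns, none of these entries was called without any 1 of their 4 libraries, and the calls over all events fell as well.

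Given as values in the direct comparison, the 6-nt acceptor of Tmeff1, a transmembrane protein of the brain, was at 61.0 and 58.6 after Zfp871 knockdown, against 76.8 and 79.7 after Srrm4 knockdown and 76.2 and 77.0 in control cells, on 400 to 764 reads (adjusted p = 0.504 by edgeR). The first experiment gave 77.2, 75 and 77.8 for Mbnl1/2 knockdown, Nacc1 knockdown and control. Rad9, a subunit of the DNA damage checkpoint clamp, had a 4-nt acceptor at 90.5 and 84.8 after Zfp871 knockdown and at 100 in both Srrm4 knockdown libraries, with control libraries at 92.0 and 100 (adjusted p = 0.202 by edgeR). In Mib2, a ubiquitin ligase, the 169-nt acceptor was at 89.9 and 89.7 after Zfp871 knockdown, at 100 in both Srrm4 knockdown libraries and at 96.3 and 95.3 in control cells (adjusted p = 0.280 by edgeR). Unadjusted p was below 0.05 for 147 acceptors (6.40%), against 5.04% of all events. The groups did not overlap and their mean PSI differed by at least 10 points for 136 (5.92%), 69 higher and 67 lower. The share was 3.04% of all events and 4.71% of the other events under the same PSI rule. Without a minimum size, the groups were apart for 828 acceptors (36%) after Srrm4 knockdown, against 32% of all events. After Zfp871 knockdown they were apart for 959 (41.7%), against 31.1% of all events, and between both knockdowns for 978 (42.6%), against 33.3%. For these shares, and for those by unadjusted p, all events include those outside the PSI rule. Under that rule, tandem acceptors 3 nt apart had groups apart for 34.7% (Srrm4), 48.9% (Zfp871) and 46.1% (between both knockdowns). In that order cassette exons had 42.6%, 40.8% and 45.1%, alternative donors of 4 nt or more 37.8%, 36.3% and 39.6%, and retained introns 38.1%, 35.4% and 36.2%. By unadjusted p these classes had 1.15%, 13.1%, 3.32% and 3.64% for Srrm4 and 5.17%, 11.6%, 3.02% and 2.95% for Zfp871. Between both knockdowns they had 5.52%, 12.1%, 3.91% and 2.05%.

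How far 2 libraries of the same group differ sets the scale for these values. Over the 2298 acceptors, the median absolute difference between a knockdown and a control library was 2.94 points for Srrm4 and 3.39 points for Zfp871. Between the 2 libraries of a group it was 2.52 points after Srrm4 knockdown, 2.94 points after Zfp871 knockdown and 2.89 points in control cells. Depth went with this spread. Where the shallowest library had fewer than 50 reads (1044 acceptors), 16.9% of the Zfp871 knockdown and control pairs were at least 10 points apart, and so were 13.5% of the acceptors between the Zfp871 knockdown libraries and 16% between the control libraries. Where every library had at least 200 reads (371 acceptors), the shares were 4.65% against control, and 0.809% within either group. For Srrm4 knockdown at that depth it was 1.89% against control and 0.27% between its own libraries.

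**Figure D3:**
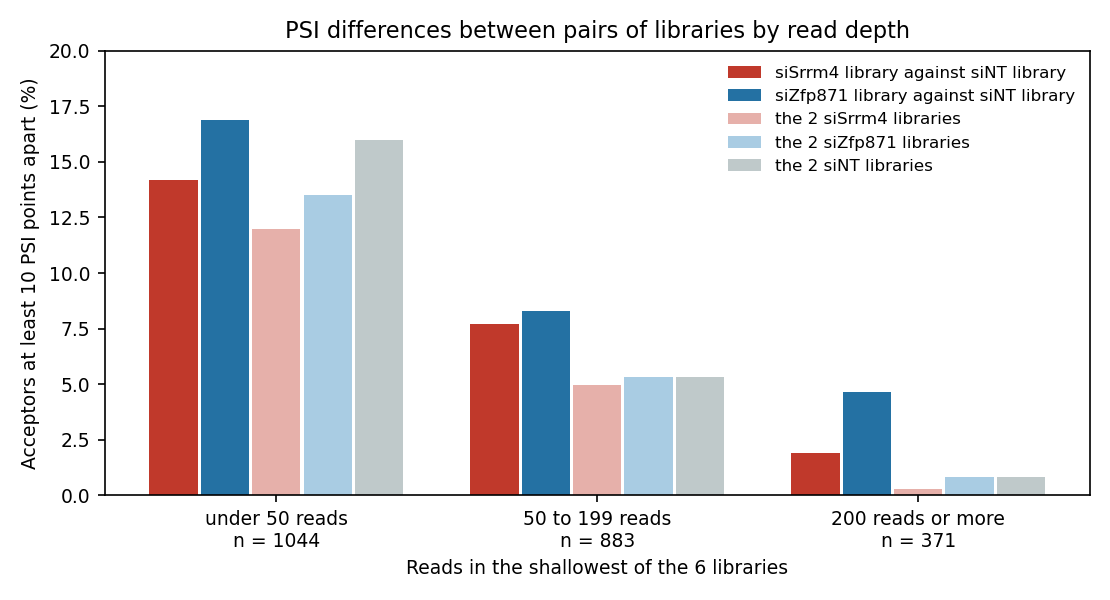
Share of acceptors whose PSI differs by at least 10 points (vertical axis, %) between a knockdown and a control library (dark bars, over 4 pairs) and between the 2 libraries of 1 group (pale bars), by reads in the shallowest library (horizontal axis). At 200 reads or more the Zfp871 share is 4.65% against control and 0.809% within a group.

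The control cells of both experiments gave similar levels. Over 1707 shared and tested acceptors, the first control library and the mean of the second control libraries had a Pearson r of 0.984 and a Spearman rho of 0.95 across acceptors, which are not independent replicates and were chosen for their PSI. The median absolute difference was 2.97 points. It reached 10 points for 185 acceptors (10.8%) and 20 points for 33 (1.93%).

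**Figure D4:**
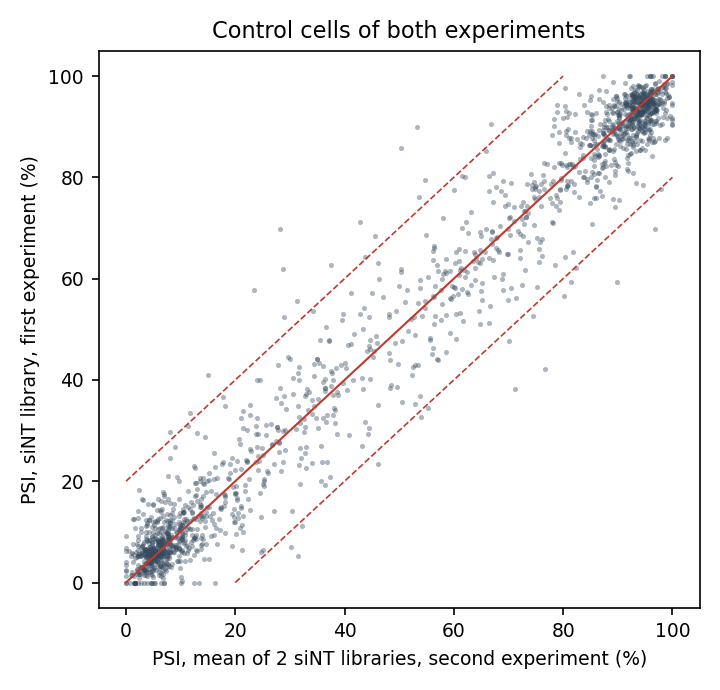
PSI (%) of 1707 acceptors in the siNT library of the first experiment (vertical axis) against the mean of the 2 siNT libraries of the second (horizontal axis), with the line of equality and dashed lines 20 points from it. Most points follow the line, and 33 lie 20 points or more from it.

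In the first experiment each condition had 1 library, so no p-value is given. An acceptor passed the size rule when all 3 libraries had at least 20 reads, the PSI differed by at least 20 points and the 95% exact (Clopper-Pearson) intervals of both libraries were apart. These intervals cover counting error alone. All 2239 acceptors had the reads. After Mbnl1/2 knockdown 6 of them (0.268%) passed, against 0.195% of all events and 0.672% of the other events under the same PSI rule. After Nacc1 knockdown 5 (0.223%) passed, against 0.182% of all events and 0.642% of the other events under that rule. Both knockdowns share the control library, and so a low or high value of it enters both. After Nacc1 knockdown Mbnl1 mRNA was at 82.7 CPM, against 124 CPM in control cells. Mbnl2 mRNA was at 65.6 CPM against 65.7 CPM. The part of these levels in the acceptors that moved in both knockdowns was not tested.

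Of the 6 acceptors that passed after Mbnl1/2 knockdown, 4 were higher. The 4-nt acceptor of Synrg, a partner of clathrin adaptors, was at 100 (interval 91.8 to 100) after Mbnl1/2 knockdown and 63.8 (47.5 to 76.8) in control cells, with Nacc1 knockdown at 63.7. Second-experiment control libraries were at 55.35 and 75, and 1 Srrm4 knockdown library was also at 100. Depdc5, a subunit of the GATOR complex that restrains amino acid signalling to mTOR, used its 122-nt acceptor at 80.7 (70.9 to 88.3) after Mbnl1/2 knockdown, 85.4 (76.3 to 92.0) after Nacc1 knockdown and 50.97 (41.1 to 60.7) in control cells. All 6 libraries of the second experiment were between 45.5 and 60.1, near the control library of the first. Acsl4, a fatty acyl-CoA synthetase, was at 63.3 (56.1 to 70.02) for its 293-nt acceptor, against 40 (34.4 to 45.8) in control cells, and Rasal2, a Ras GTPase-activating protein, at 32.6 (22.8 to 43.5) for its 21-nt acceptor, against 10.6 (5.61 to 17.8). Nacc1 knockdown was at 45.1 for Acsl4, near control, and at 26.9 (18.8 to 36.2) for Rasal2, whose interval also lay above that of the shared control library, while the second experiment was between 7.41 and 16.1 for Rasal2.

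Lower after Mbnl1/2 knockdown were Ptma and Phf20l1. Ptma encodes prothymosin alpha, a small acidic nuclear protein, and its 24-nt acceptor was at 45.3 (34.6 to 55.3) after Mbnl1/2 knockdown and 69.8 (62.0 to 77.1) in control cells, with Nacc1 knockdown at 64.5. The 6 libraries of the second experiment were between 82.9 and 98.7 for Ptma, so that its control level also differed between the experiments. Phf20l1 was at 69.8 (55.9 to 81.2) for the 4-nt acceptor, against 94.1 (87.6 to 97.8) in control cells, with Nacc1 knockdown at 83.1 (73.6 to 89.8) and the second experiment at 76.2 to 100. The coding stretches of 3 of these genes lie at chr1:86529731-86529754 (Ptma, plus strand), chr1:157158838-157158858 (Rasal2, minus strand) and chr5:32937521-32937642 (Depdc5, plus strand). Each runs to the innermost acceptor of its event. In the second experiment that innermost acceptor was at 0 in every library for Depdc5 and at 0 to 6.07 for Ptma. The stretch of Ptma ends in AAG and those of Rasal2 and Depdc5 in CAG.
Ptma, 24 nt: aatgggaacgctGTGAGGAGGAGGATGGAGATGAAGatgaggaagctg
Rasal2, 21 nt: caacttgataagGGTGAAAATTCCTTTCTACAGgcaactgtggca
Depdc5, 122 nt: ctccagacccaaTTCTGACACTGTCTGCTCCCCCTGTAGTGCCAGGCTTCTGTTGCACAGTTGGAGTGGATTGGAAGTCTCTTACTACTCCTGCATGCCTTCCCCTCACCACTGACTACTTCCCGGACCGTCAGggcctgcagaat

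After Nacc1 knockdown Depdc5 and Mll3 were higher and Rpl22, Qrich1 and Fam48a lower. The 6-nt acceptor of Rpl22, a ribosomal protein, was at 44.8 (34.2 to 55.3) after Nacc1 knockdown and 75.9 (69.6 to 81.3) in control cells, with Mbnl1/2 knockdown at 77.1 and the second experiment between 80.9 and 90.3. It stood below all other libraries. The 71-nt acceptor of Mll3, a histone methyltransferase, was at 75.01 (63.3 to 84.0), against 51.1 (39.0 to 62.2) in control cells. Mbnl1/2 knockdown was at 70.3 (57.7 to 80.7) for Mll3, and the second experiment ranged from 45.8 to 68.8. Qrich1 was at 4.41 (0.919 to 12.4) for its 64-nt acceptor, against 24.6 (14.1 to 37.8) in control cells, with Mbnl1/2 knockdown at 12.1 (4.99 to 23.3). Fam48a, a subunit of the SAGA complex, was at 55.7 (46.5 to 64.7) for its 237-nt acceptor, against 75.8 (69.1 to 81.6) in control cells, with Mbnl1/2 knockdown at 73.7. The second experiment was between 87.0 and 90.8 for Fam48a, above all libraries of the first. Set against Mbnl1/2 knockdown, with which it shares no library, Nacc1 knockdown had 3 acceptors past the size rule (0.134%), all lower, against 0.151% of all events and 0.512% of the other events under the same PSI rule: those of Synrg, Rpl22 and 3830403N18Rik. The 48-nt acceptor of 3830403N18Rik was at 69.2 (56.2 to 79.4) after Nacc1 knockdown and 100 (93.5 to 100) after Mbnl1/2 knockdown.

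**Figure D5:**
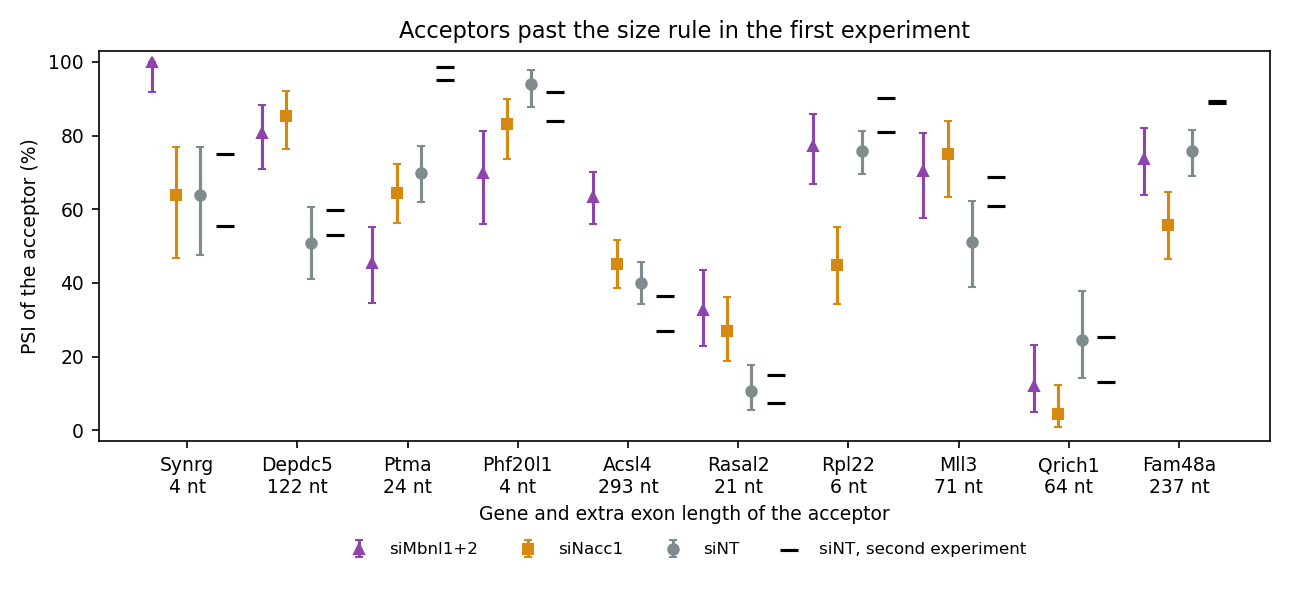
PSI (vertical axis, %) with 95% exact intervals of the 10 acceptors past the size rule against control in the first experiment (horizontal axis), for Mbnl1/2 knockdown, Nacc1 knockdown and control, with the 2 control libraries of the second experiment as black dashes. Depdc5 is above control in both knockdowns, and the second-experiment controls of Ptma lie above all 3 libraries of the first.

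By distance, acceptors were counted whose groups did not overlap and whose mean PSI differed by at least 10 points. After Srrm4 knockdown these were 5 of 172 (2.91%) at 4 nt and 7 of 221 (3.17%) at 5 to 8 nt. They were 6 of 284 (2.11%) at 9 to 18 nt and 20 of 733 (2.73%) at 19 to 50 nt. At 51 to 150 nt they were 28 of 698 (4.01%), and 9 of 190 (4.74%) beyond that distance. After Zfp871 knockdown, in the same order of distance, the counts were 13 (7.56%), 8 (3.62%), 20 (7.04%), 34 (4.64%), 44 (6.30%) and 8 (4.21%). The shares followed no steady order with distance after Zfp871 knockdown, and the differences between classes were not tested. In the same order, the shallowest library had a median of 58, 72, 60, 58, 52 and 44 reads. Between the 2 Srrm4 knockdown libraries the median absolute difference was 1.84, 2.27, 2.38, 2.54, 2.64 and 2.78 points. The part of depth and spread in these shares was not tested. Other event classes under the same PSI rule had shares of 3.56% (tandem acceptors 3 nt apart), 5.10% (alternative donors of 4 nt or more), 7.65% (cassette exons) and 3.62% (retained introns) after Srrm4 knockdown, beside 3.26% for the acceptors more than 3 nt apart. After Zfp871 knockdown these shares were 8.16%, 3.91%, 6.85% and 3.33%, beside 5.53%. By edgeR, 93 of 6117 cassette exons were called after Srrm4 knockdown and 21 after Zfp871 knockdown, all lower, beside the 1 and 3 acceptors.

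The authors' deposited table marks 18 of the 2312 acceptors (0.779%) as differentially spliced after Srrm4 knockdown, 12 higher and 6 lower, against 0.292% of all events with a PSI in all conditions. After Zfp871 knockdown the authors' deposited table marks 38 (1.64%), 19 in each direction, against 0.261%. For the first experiment the authors' deposited table marks 87 of 2239 (3.89%) after Mbnl1/2 knockdown, against 0.985% of all events. After Nacc1 knockdown the authors' deposited table marks 90 (4.02%), against 1.05%. All events include those outside the PSI range by which the acceptors were chosen. The share of marks among other events under the same PSI rule is not given. Whether the acceptors are marked more often than such events therefore cannot be read from these shares. Cask carries the mark in both knockdowns of the second experiment, and Chchd1, Unc50, Cep55 and Synj1 carry it for Zfp871 in the authors' deposited table.

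The genes were grouped by function in lists drawn up with earlier results known. Of 83 genes of RNA processing, 22 held 28 tested acceptors, of which none was called by edgeR in either comparison with control (unadjusted p below 0.05 for 2 after Srrm4 knockdown and 0 after Zfp871 knockdown, and none by limma). In Hnrnpc, a nuclear RNA-binding protein that binds uridine tracts, the 24-nt acceptor was at 64.7 and 68.2 after Srrm4 knockdown, against 55.1 and 57.5 in control libraries. In Rbm39, a U2AF-like splicing factor, the 18-nt acceptor was at 40.7 and 47.6 after Zfp871 knockdown, against 56.6 and 54.7. Genes of chromatin and transcription held 42 acceptors in 33 genes and genes of cytoskeleton, adhesion and membrane traffic 14 in 11. None was called by edgeR or limma, and unadjusted p was below 0.05 by edgeR for 0 and 3 after Srrm4 knockdown and for 0 and 0 after Zfp871 knockdown. The largest difference in the chromatin list was Mll1 (122 nt), at 92.9 and 77.6 after Srrm4 knockdown against 56.3 and 77.2 in control libraries on 14 to 57 reads, and in the cytoskeleton list Ablim1.

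Whether the host genes themselves changed was tested on gene counts, which the rule did not use. After Srrm4 knockdown 80 of 1683 host gene entries tested (4.75%) changed by edgeR, 20 higher and 60 lower, against 4.70% of all 12378 genes. After Zfp871 knockdown 32 (1.90%) changed, 5 higher and 27 lower, against 2.89% of all genes. With the library letter as a block these counts became 620 (36.8%) and 501 (29.8%), against 36.9% and 31.1% of all genes, so that the calls over all genes rose with them. A fit of the 4 libraries compared gave 0 for Srrm4, beside 0 of all genes, and 19 (1.13%) for Zfp871, against 1.46% of all genes. Leaving out 1 library lowered the host gene counts each time. The calls over all genes fell too for Srrm4, and for Zfp871 without either of its knockdown libraries. In the first experiment none of 1623 host genes passed a log2 fold change of 1 in size after Mbnl1/2 knockdown, against 1.02% of all genes, and 8 (0.493%) did after Nacc1 knockdown, 1 higher and 7 lower, against 3.38%.

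Genes that act on acceptors were followed in 3 lists, by the fit without the block and then with it. Over all genes and without the block, edgeR called 4.70% after Srrm4 knockdown and 2.89% after Zfp871 knockdown. DESeq2 called 8.12% and 6.19% of 21553 genes. By edgeR an unadjusted p below 0.05 was reached by 418 (Srrm4) and 323 (Zfp871) of the 1683 host gene entries. Its share over all genes is not given. Of 25 tested genes of acceptor recognition (U2AF, SF1 and the SF3 complexes and their helpers), edgeR called none after Srrm4 knockdown and 1, Dhx35, after Zfp871 knockdown, at 23.4 and 24.6 CPM against 35.3 and 33.2 CPM (log2 fold change -0.51 ± 0.09 SE, adjusted p = 0.0486 by edgeR). After Srrm4 knockdown 0 of these genes had an unadjusted p below 0.05 and DESeq2 called 0. Of 23 genes of the second step and of proofreading, edgeR called none in either comparison, with an unadjusted p below 0.05 for 4 after Srrm4 knockdown and 5 after Zfp871 knockdown, and DESeq2 called 2 and 1. With the block by letter, 7 (30.4%) were called after Srrm4 knockdown, 6 higher and 1 lower, and 6 (26.1%) after Zfp871 knockdown, all higher, against 36.9% and 31.1% of all genes. Slu7, a second-step factor that acts in the choice of acceptor, was among those called after Srrm4 knockdown, at 77.2 and 80.3 CPM, against 67.0 and 66.4 CPM in control libraries. So was Dhx38, a spliceosomal helicase, with a log2 fold change of 0.40 ± 0.12 (SE) and an adjusted p of 0.102 by edgeR without the block. Gpkow, a spliceosomal G-patch protein, was called in both, at 40.2 and 41.6 CPM after Srrm4 knockdown and 43.7 and 42.9 CPM after Zfp871 knockdown, against 33.8 and 32.6 CPM in control libraries. For acceptor recognition the block gave 1 call (4%) after Srrm4 knockdown and 5 (20%) after Zfp871 knockdown. Among 40 tested regulators of polypyrimidine tracts and acceptors, 5 fell after Srrm4 knockdown (Srrm4 itself, Rbms3, Elavl4, Srrm3 and Elavl3) and 3 after Zfp871 knockdown (Rbms3, Celf4 and Nova1), against 4.70% and 2.89% of all genes changed in either direction. Unadjusted p by edgeR was below 0.05 for 12 of the 40 in each comparison, beside 418 and 323 of the 1683 host gene entries. DESeq2 called 10 and 12, against 8.12% and 6.19% of all genes. With the block 16 (40%) and 15 (37.5%) were called, against 36.9% and 31.1% of all genes. Rbms3, an RNA-binding protein, was at 22.8 and 22.2 CPM after Srrm4 knockdown and 24.9 and 21.6 CPM after Zfp871 knockdown, against 53.5 and 64.9 CPM in control libraries. Elavl4 and Elavl3, neuronal proteins that bind AU-rich RNA, had log2 fold changes of -0.89 ± 0.09 and -0.49 ± 0.08 (SE) after Srrm4 knockdown, and Srrm3, a relative of Srrm4, one of -0.62 ± 0.105. Celf4 and Nova1, neuronal splicing regulators, had -1.09 ± 0.18 and -0.94 ± 0.16 after Zfp871 knockdown. Elavl3 and Elavl4 are also among the neuronal markers. Of 17 tested, 3 (17.6%) fell after Srrm4 knockdown, against 4.70% of all genes changed. After Zfp871 knockdown 3 fell and 1 rose (23.5%), against 2.89%. DESeq2 called 7 of these markers in each comparison, against 8.12% and 6.19% of all genes. The block by letter called 12 (70.6%) and 9 (52.9%), against 36.9% and 31.1% of all genes. In the first experiment no gene of these lists passed a log2 fold change of 1 in size other than the targeted Mbnl1 and Mbnl2.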

How the data were processed

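RNA-seq of 9 N2A libraries was used. Percent spliced in (PSI, a percent) was deposited by the authors per condition in a filtered table, with TRUE or FALSE marks of differential splicing, and per library in vast-tools tables, beside the acceptor's length in nt and a text cell that ends in inclusion and exclusion reads. Raw counts per gene were deposited by the authors. The submitters' processing notes name CASAVA 1.8, edgeR and mm9, and no source at hand gives other upstream versions. RNA came from TriZol or a Qiagen kit, and which one is not stated per sample. PSI per library of the second experiment was computed here from the deposited inclusion and exclusion reads. In all, 20 deposited columns of per-library values were not used.

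The acceptors and gene lists were chosen with earlier results of these data known. Events needed 10 reads in every library of the second experiment and a PSI from 2 to 98 in any of these libraries. The main test was edgeR 4.0.16 (quasi-likelihood, R 4.3.3) on inclusion and exclusion reads over 6 libraries, Benjamini-Hochberg adjusted over 69566 events. The test planned as the main one was limma 3.58.1 on the logit of PSI (offset of 1 point). It was replaced after the results of both had been seen, because the files hold paired reads for every entry and because, in reads simulated around these libraries' PSI, limma recovered none of the changes put in and made no false call, whereas edgeR recovered most of them with a few false calls. The simulated reads were beta-binomial, a count model closer to edgeR's than to limma's. Their spread was set and not estimated from these libraries, so the comparison leans towards edgeR. Gene counts were tested with edgeR (TMM) and, as an alternative, DESeq2 1.42.0. The first experiment has 1 library per group and got a size rule in place of a test. Intervals are exact and cover counting error only. Up to 12 acceptors were named per comparison, those called first. The rest had the lowest p among acceptors whose groups did not overlap and whose mean PSI differed by at least 10 points. Segments were read from GENCODE M21 (GRCm38) by gene symbol (2804 of 2841 matched), never by converted coordinates. Figures were drawn with matplotlib 3.10.9.

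The labels number the libraries of a group and the columns letter them, and no source links letters to cultures. Deviations from the group means correlated between same-lettered libraries at 0.696, 0.814 and 0.735 over genes, and at 0.00755, 0.0140 and 0.00437 over the acceptors, and the block by letter is therefore given beside the host gene counts and the gene lists.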

Additional observations from a re-analysis of the deposited data

How the results depend on the processing

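Cask after Srrm4 knockdown was called under all alternatives except limma on logit PSI, the test first planned, which called 0 acceptors in the 3 comparisons (0 also with an offset of 5 points). The choice of edgeR was made after seeing both. For Srrm4 against control, 1 acceptor was called in the main test, 3 with no minimum beyond 1 read (170 of all 82498 events) and 6 when acceptors alone were fitted (20 of all 12215 acceptor entries). For Zfp871 against control the 3 calls became 6 (79 of all events) and 20 (52 of all acceptor entries) under those settings, and for Zfp871 against Srrm4 the 3 calls became 6 (55) and 26 (67). With 20 reads required, both of the last comparisons had 0 calls, beside 0 (Zfp871) and 2 (between both knockdowns) of all 59755 events. With only the 4 libraries compared they also had 0 calls, beside 0 of all 65295 and 1 of all 62204 events. Between both knockdowns, 1 call was left with a PSI difference of 20 points or a PSI from 5 to 95 in all conditions. Leaving out 1 library, which leaves 1 in its group, kept the Cask call for Srrm4 each time. The calls for Zfp871 and between both knockdowns were lost each time. Calls over all events fell as well in all 3 comparisons. With the replicate block for the letter, 3, 8 and 6 acceptors were called, beside 177, 92 and 42 of all 69566 events (112, 28 and 10 without it). The same block called 620 (Srrm4) and 501 (Zfp871) host genes, beside 4565 and 3854 of all 12378 genes (582 and 358 without it). DESeq2 called 257 and 163 host genes (1750 and 1334 of all 21553 genes). The 4 libraries alone gave 0 and 19 (0 of all 12285 and 178 of all 12189 genes). Leaving out 1 library gave fewer host genes than the main fit each time. In the first experiment a 10-point rule gave 20 acceptors for Mbnl1/2 and 19 for Nacc1 (754 and 824 of all 174640 events), and dropping the rule on intervals 17 and 19 (681 and 649). Of the single acceptors under alternatives, 399 values stayed on their side of the threshold, 50 lost and 41 gained a call, and 0 reversed. The causes of these shifts were not tested. Depth limits the comparison: under 50 reads, 16% of acceptors differed by 10 points or more between the 2 control libraries.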
